A study of Mus musculus with 7 samples.

Results

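The mitochondrial genome of the mouse is a small circular DNA, and all 37 genes whose symbol starts with mt- in the deposited table lie on it (chromosome M of GRCm38). They were the members described here, out of 55487 genes in the table. They comprise 13 mRNAs for subunits of the respiratory chain, 2 ribosomal RNAs and 22 tRNAs. By strand of the annotation, 28 lie on the plus strand (12 mRNAs, 2 rRNAs and 14 tRNAs) and 9 on the minus strand, where mt-Nd6 is the single mRNA and the other 8 genes are tRNAs. Of the 37 genes, 15 passed the filter on low counts: every mRNA and both rRNAs, and 0 of the tRNAs.

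RNA-seq of total RNA was done on brown adipose tissue, the mitochondria-rich depot that makes heat, from 7 NOD/ShiLtJ mice, a strain prone to autoimmune diabetes. The CB-100 group had 4 mice and the sham group, which received KRBH buffer, had 3 mice. CB-100 is the size fraction above 100 kDa of buffer conditioned by brown adipocytes, and the labels name the treatment after imBAT conditioned buffer. It was given under the skin at 1.5 mg per kg body weight over 7 days to mice whose blood glucose lay at 190 to 230 mg/dL, and tissue was collected 2 to 8 weeks later. The labels repeat the CB-100 schedule for the sham mice and give neither age nor the week of each mouse. Titles carry the code nd on every CB-100 sample and d on every sham sample. What the codes stand for is not spelled out, and it cannot be told apart from the injection.

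Mitochondrial DNA is transcribed from both strands into long precursors that span many genes. The tRNAs sit between most of the longer genes, and cutting them out by RNase P at one end and by Elac2 at the other frees the mRNAs and rRNAs, so that genes of one precursor are made together and their levels also depend on processing and decay. The 13 proteins are core subunits of complexes I, III, IV and V, which also need many subunits encoded in the nucleus. In brown fat the same chain pumps the protons that uncoupling protein 1 lets back without making ATP.

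Several stretches of sequence set how these RNAs can be counted. They are taken from GENCODE M21 transcripts on GRCm38, a C57BL/6J genome, while the mice were NOD. The ends of mt-Nd5 (plus strand, chrM:13516-13565) and mt-Nd6 (minus strand, chrM:13552-13601) are shown because the genes face each other and overlap by 14 bases, given in capitals. Each is written in the direction of its own mRNA.
mt-Nd5: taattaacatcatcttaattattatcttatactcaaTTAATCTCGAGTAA
mt-Nd6: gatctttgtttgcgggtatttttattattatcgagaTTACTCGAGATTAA
The 14 bases of one are the reverse complement of those of the other, so a read of this stretch cannot be placed on either gene without its strand. Whether the libraries kept strand is not given in the sources used here, and RNA antisense to either gene could then not be told apart from the gene itself.

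The mt-Nd3 gene (chrM:9459-9518, plus strand) and its copy Gm28438 on chromosome 1 (chr1:24613060-24613119, minus strand) are shown as 60 bases each, because reads can be divided between them. A run of copies of this kind on chromosome 1 is mitochondrial DNA that entered a nuclear chromosome. The base that differs is in capitals and is T3C, counted from 1 at the 5′ end of mt-Nd3, with the mitochondrial base first.
mt-Nd3: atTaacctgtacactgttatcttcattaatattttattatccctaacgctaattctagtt
Gm28438: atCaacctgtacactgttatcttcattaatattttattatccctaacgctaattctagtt
The mt-Co1 gene (chrM:6390-6449, plus strand) and Gm29216 (chr1:24616129-24616188, minus strand) likewise differ at the capital base, A1066T, counted from 1 at the 5′ end of mt-Co1.
mt-Co1: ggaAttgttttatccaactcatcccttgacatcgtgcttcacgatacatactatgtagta
Gm29216: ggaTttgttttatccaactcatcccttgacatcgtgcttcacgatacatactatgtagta
The other bases were identical over 345 aligned bases for mt-Nd3 and 483 for mt-Co1, so within them only reads over that base separate the mitochondrial gene from its copy.

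The tRNA mt-Tm (methionine, chrM:3845-3913, plus strand) ends at the base before mt-Nd2 begins, and mt-Te (glutamate, chrM:14071-14139, minus strand) ends at the base before mt-Nd6 begins on that strand. Both are shown whole, in lower case, as examples of the short RNAs that separate the longer ones.
mt-Tm: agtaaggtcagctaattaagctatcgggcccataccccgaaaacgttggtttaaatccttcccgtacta
mt-Te: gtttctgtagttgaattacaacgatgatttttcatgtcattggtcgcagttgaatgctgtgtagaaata
The mRNAs mt-Cytb (chrM:15259-15288), mt-Co3 (chrM:9361-9390) and mt-Nd4 (chrM:11515-11544) end in the first base of a stop codon, in capitals below, which the poly(A) tail completes.
mt-Cytb: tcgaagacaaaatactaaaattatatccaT
mt-Co3: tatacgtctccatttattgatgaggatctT
mt-Nd4: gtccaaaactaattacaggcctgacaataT
These 3 mRNAs are among those whose estimates are given below.

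Library totals ran from 10815101 to 28528471 counts, the largest being CB-100 replicate 4, and levels are given as CPM, counts per 1000000 after TMM scaling. By Xist and 4 Y-linked genes, 5 libraries were female (3 CB-100 and 2 sham) and replicate 3 of each group was male. All 12 brown adipocyte markers passed the filter, and their summed level was 3945 to 8082 CPM in CB-100 against 4725 to 7913 CPM in sham. Single markers differed in direction, with 7 estimates above 0 (52.7% of all genes) and 5 below (47.3%). Dio2 was above sham in every CB-100 library (log2 3.10, edgeR adjusted p = 0.137). Adipoq was below sham in each (log2 -0.91, edgeR adjusted p = 0.051). Summed levels of 14 skeletal muscle markers were 349 to 2542 CPM in the CB-100 group and 925 to 2051 CPM in sham, those of 7 endothelial markers 830 to 1780 CPM and 632 to 996 CPM, and those of 5 blood markers 879 to 4544 CPM and 787 to 2201 CPM. For 8 white adipocyte markers, of which 6 were tested, the ranges were 83.7 to 250.03 CPM in the CB-100 group and 37.0 to 151 CPM in sham, and for 11 immune markers, of which 8 were tested, 77.3 to 171 CPM and 75.5 to 120.2 CPM. Estimates lay above 0 for 3 of 14 tested skeletal muscle, 7 of 7 endothelial, 5 of 5 blood, 5 of 6 white adipocyte and 5 of 8 immune markers. Over all genes that share was 52.7%. The median log2 changes were -0.79, 0.61, 0.37, 0.70 and 0.06 in that order, beside 0.03 for all genes. No marker was at 0 in every library, and of 52 marker genes tested 0 passed in edgeR, against 3.7% of all genes. At an unadjusted p under 0.05 there were 7, against 23.9% of all genes. DESeq2 and limma voom called 3 each, against 1968 and 1213 of all 16823 genes. The part of these cell types in the results below was not tested. The abundant noncoding RNAs 7SL and 7SK took 9.54% to 14.4% of counts in the CB-100 group and 5.89% to 8.35% in sham, with no overlap, and their part was not tested either.

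Mitochondrial genes took a large share of each library. The share of all counts was 25.3%, 23.3%, 22.3% and 36.3% in the 4 CB-100 libraries and 14.3%, 22.8% and 19.3% in the 3 sham libraries. CB-100 replicate 4 stood highest and sham replicate 1 lowest, and the groups overlapped because sham replicate 2 lay above CB-100 replicate 3. The mean was 26.8% ± 6.44 (SD, n = 4) in the CB-100 group and 18.8% ± 4.29 (SD, n = 3) in sham. CB-100 was thus 8.02 percentage points higher on average, and 4.86 higher without CB-100 replicate 4. As a share of protein-coding and mitochondrial counts alone the values were 31.7%, 30.5%, 27.8% and 46.4% in CB-100 against 16.7%, 27.4% and 22.3% in sham, where the groups did not overlap. In bulk tissue, more mitochondria-rich cells and more mitochondrial RNA per cell cannot be told apart.

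By RNA class, the mRNAs held nearly all of it. The mRNA share of all counts averaged 26.6% ± 6.45 (SD, n = 4) in the CB-100 group and 18.7% ± 4.25 (SD, n = 3) in sham. The 2 rRNAs, which in tissue outnumber the mRNAs, took 0.120%, 0.208%, 0.381% and 0.267% of counts in CB-100 against 0.130%, 0.214% and 0.0553% in sham, with overlap. By strand, genes of the plus strand averaged 26.6% ± 6.48 (SD, n = 4) in the CB-100 group and 18.5% ± 4.25 (SD, n = 3) in sham. The minus strand went the other way in its mean, 0.260% ± 0.0527 (SD, n = 4) in the CB-100 group and 0.311% ± 0.0382 (SD, n = 3) in sham, also with overlap.

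None of the 15 tested mitochondrial genes passed the threshold of 0.05 in edgeR's quasi-likelihood test with Benjamini-Hochberg adjustment over 16823 genes, 0 higher and 0 lower, against 1.42% of all tested genes called higher and 2.28% called lower (3.7% in either direction). At an unadjusted p under 0.05 there were 7 of 15, against 23.9% of all genes. DESeq2 called 5 (all higher, against 5.48% of all genes) and limma voom called 0, against 1213 of 16823 genes. The estimates lay above 0 for 14 of the 15, against 52.7% of all genes, with 1 below 0, against 47.3%, and a median of 1.00 on the log2 scale beside 0.03 for all genes. Adjusted p-values ran from 0.13 to 0.94, with standard errors of 0.27 to 0.62. For 4 of the 15 every CB-100 library lay above every sham library, against 11.1% of all genes, and for 0 of them the reverse held, against 12.2%. These genes are read from shared precursors in the same libraries, so their estimates are not independent of each other. Only the animal codes in the titles mark the samples as separate mice, and all p-values rest on the spread among them.

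**Figure D1:**
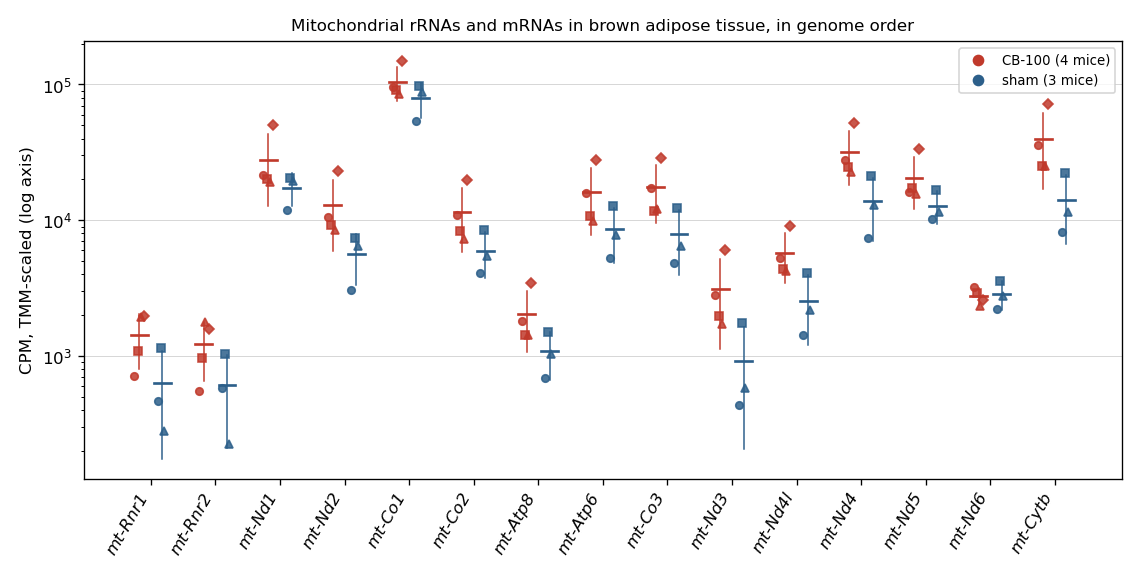
CPM on a log axis of the 15 mitochondrial genes that passed the filter, in genome order, with CB-100 left of sham for each gene; marker shape gives the replicate (circle 1, square 2, triangle 3, diamond 4), the horizontal bar the mean and the vertical line the SD. The 4 CB-100 libraries lie above the 3 sham libraries for mt-Nd2, mt-Nd4l, mt-Nd4 and mt-Cytb, while mt-Nd6 overlaps at 2778 CPM in the CB-100 group and 2865 CPM in sham.

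The largest estimates were those of mt-Nd3 and mt-Cytb. mt-Cytb, cytochrome b, is the only mitochondrially encoded subunit of complex III. Its level was 35583, 24970.4, 25029 and 72295 CPM in the CB-100 libraries against 8225, 22486 and 11608 CPM in the sham libraries. All CB-100 libraries exceeded all sham libraries, with sham replicate 2 close under the lowest of them. The log2 change was 1.48 (SE 0.55, edgeR quasi-likelihood adjusted p = 0.145), a fold of 2.80, and it was 1.02 without CB-100 replicate 4 and 1.99 without sham replicate 2. DESeq2 gave an adjusted p of 0.011 for it.

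mt-Nd3, a small subunit of complex I, had 2817, 1977, 1711 and 6085 CPM in CB-100 against 438, 1739 and 580.1 CPM in sham. Sham replicate 2 lay just above CB-100 replicate 3, so the groups overlapped. The log2 change was 1.78 (SE 0.62, edgeR quasi-likelihood adjusted p = 0.130), a fold of 3.42, and ranged from 1.24 without CB-100 replicate 4 to 2.63 without sham replicate 2. This gene shares reads with Gm28438, shown above, and is uncertain to that extent.

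Complex I takes 7 of the 13 mRNAs. Of these, mt-Nd2, a membrane subunit of the proton-pumping arm, had 10661, 9164, 8469 and 23263 CPM in CB-100 against 3054, 7434 and 6518 CPM in sham. mt-Nd4, another proton-pumping subunit, had 28030.5, 24667, 22571 and 52477 CPM in CB-100 against 7459, 21018 and 13035 CPM in sham. mt-Nd4l, which overlaps mt-Nd4 by 7 bases and shares its mRNA, had 5268, 4401, 4238 and 9092 CPM in CB-100 against 1437, 4074 and 2190.5 CPM in sham. In these 3 genes no sham library reached the lowest CB-100 library, although sham replicate 2 came near it for mt-Nd4 and mt-Nd4l. Their log2 changes were 1.19 for mt-Nd2 (SE 0.49, adjusted p = 0.18), 1.21 for mt-Nd4 (SE 0.49, adjusted p = 0.176) and 1.16 for mt-Nd4l (SE 0.44, adjusted p = 0.153), all from edgeR. DESeq2 gave adjusted p-values of 0.038, 0.024 and 0.028 in that order. Without CB-100 replicate 4 the log2 change of mt-Nd2 was 0.74.

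The other complex I mRNAs of the plus strand had smaller estimates. mt-Nd1, which lies at the junction of the membrane and matrix arms, had 21455, 20281, 19015 and 50451 CPM in CB-100 against 11982, 20659 and 19566 CPM in sham. mt-Nd5, the distal pumping subunit, had 16091, 17417, 15555 and 33210.1 CPM in CB-100 against 10259.8, 16804 and 11427 CPM in sham. Both were highest in CB-100 replicate 4. For mt-Nd1 the other 3 CB-100 libraries overlapped with sham replicates 2 and 3. For mt-Nd5 they lay above sham replicates 1 and 3 and overlapped with sham replicate 2 only. Without CB-100 replicate 4 the log2 change was 0.22 for mt-Nd1 and 0.35 for mt-Nd5, against 0.68 for each with all 7 libraries.

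Complex IV is built around mt-Co1, mt-Co2 and mt-Co3, and mt-Co1 carries its catalytic centre. mt-Co1 had the highest CPM of the mitochondrial genes, with 95485, 90443, 85296 and 148651 CPM in CB-100 against 53446, 97466.5 and 88755 CPM in sham. Apart from the high CB-100 replicate 4 and the low sham replicate 1, the libraries of both groups fell in the same range. Its log2 change of 0.39 (SE 0.44, edgeR adjusted p = 0.621) was the smallest of the 12 plus-strand mRNAs, and it was 0.17 without sham replicate 1 and 0.18 without CB-100 replicate 4. mt-Co3 had 17421, 11628, 12209.99 and 28863 CPM in CB-100 against 4851, 12329 and 6452 CPM in sham. Its log2 change was 1.15 (SE 0.48, edgeR adjusted p = 0.183; DESeq2 adjusted p = 0.036), and sham replicate 2 lay above 2 CB-100 libraries. mt-Co2, which holds the first copper centre that takes electrons from cytochrome c, averaged 11573 ± 5709 CPM (SD, n = 4) in the CB-100 group and 5994 ± 2264 CPM (SD, n = 3) in sham, with overlap. Its log2 change was 0.95 (SE 0.45), and 0.56 without CB-100 replicate 4.

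Complex V, the ATP synthase, has 2 mitochondrial subunits, and their reading frames overlap by 43 bases on one mRNA. mt-Atp6, part of the proton channel, averaged 16118 ± 8292 CPM (SD, n = 4) in the CB-100 group and 8566 ± 3744 CPM (SD, n = 3) in sham. mt-Atp8 averaged 2041 ± 969 CPM (SD, n = 4) in the CB-100 group and 1082 ± 414 CPM (SD, n = 3) in sham. The groups overlapped for both, and the log2 changes, 0.91 (SE 0.48) and 0.92 (SE 0.41), were nearly equal. Without CB-100 replicate 4 they were 0.51 and 0.53.

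The ribosomal RNAs of the mitochondrial ribosome are read first on the plus strand. mt-Rnr1, of the small subunit, had 716, 1087, 1939.9 and 1976 CPM in CB-100 against 467, 1148 and 281 CPM in sham. mt-Rnr2, of the large subunit, had 549.97, 964, 1796 and 1571 CPM in CB-100 against 578, 1029.8 and 227 CPM in sham. Here CB-100 replicates 3 and 4 were high and replicates 1 and 2 lay within the sham range, an order unlike that of the mRNAs. In tissue the rRNAs outnumber the mRNAs, but not in these counts, so the estimates cover only the rRNA that was counted. The log2 changes were 1.18 (SE 0.54, edgeR adjusted p = 0.226) for mt-Rnr1 and 1.00 (SE 0.55, edgeR adjusted p = 0.306) for mt-Rnr2. Without sham replicate 2 they were 1.93 and 1.599, without sham replicate 3 they were 0.81 and 0.59, and in the 5 females alone they came to 0.63 and 0.35. The ratio of mt-Rnr2 to mt-Rnr1 was 0.769, 0.887, 0.926 and 0.795 in CB-100 against 1.24, 0.897 and 0.810 in sham, overlapping. On the log2 scale it differed by -0.20 (exact two-sided permutation p = 0.314 over 35 splits, where the smallest possible is 0.0286; adjusted over 2 ratios 0.314), and by -0.02 without sham replicate 1.

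**Figure D2:**
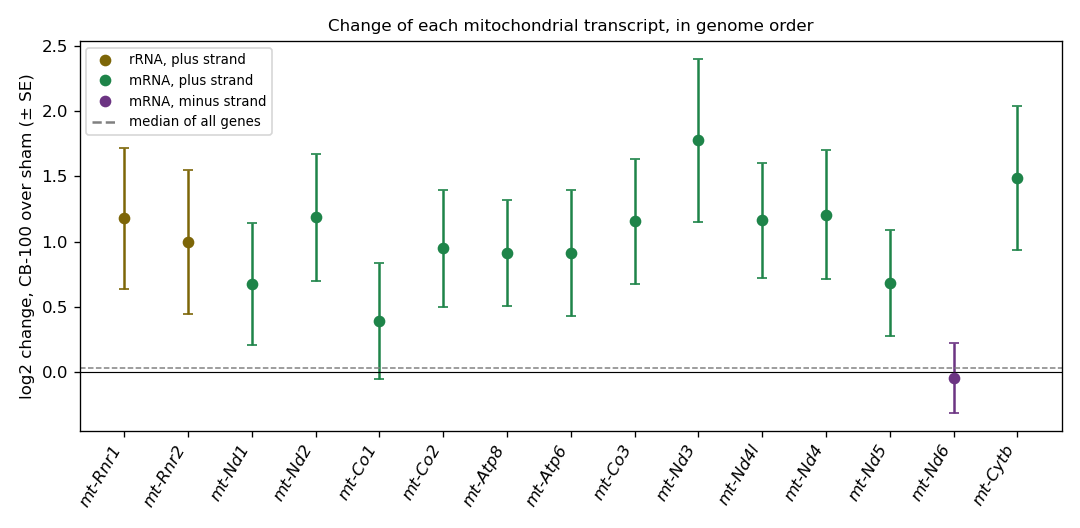
Log2 change of CB-100 over sham with its SE for the 15 tested genes, placed by their order on the mitochondrial genome and marked by RNA class and strand. The 12 plus-strand mRNAs run from 0.39 (mt-Co1) to 1.78 (mt-Nd3), and mt-Nd6 of the minus strand lies at -0.04.

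The single mRNA of the minus strand had an estimate near 0. mt-Nd6, a membrane subunit of complex I, had 3251, 2920.0, 2358 and 2584 CPM in CB-100 against 2225, 3593 and 2778 CPM in sham. The libraries of both groups were interleaved, and CB-100 replicate 4, the highest of its group for 13 of the 15 genes, was here below replicates 1 and 2. The log2 change was -0.04 (SE 0.27, edgeR adjusted p = 0.936), against a median of 1.05 over the 12 plus-strand mRNAs, and its sign changed without CB-100 replicate 3 or without sham replicate 2. As a share of mitochondrial mRNA counts mt-Nd6 held 1.23%, 1.28%, 1.10% and 0.540% in CB-100 against 1.96%, 1.56% and 1.57% in sham. Each CB-100 library lay below each sham library on this measure.

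The neighbour mt-Nd5 faces mt-Nd6 from the other strand, so their ratio compares the strands within a library without any scaling. The ratio of mt-Nd6 to mt-Nd5 was 0.202, 0.168, 0.152 and 0.0778 in CB-100 against 0.217, 0.214 and 0.243 in sham. Every CB-100 library was lower than every sham library, CB-100 replicate 1 by a small margin. The log2 ratio differed by -0.67, with means of -2.82 ± 0.60 (SD, n = 4) in the CB-100 group and -2.16 ± 0.10 (SD, n = 3) in sham (exact two-sided permutation p = 0.0571 over 35 splits; adjusted over 2 ratios 0.114). It did not pass. The smallest possible permutation p over 35 splits is 0.0286. With the other ratio at a permutation p of 0.314, no value for this one could have passed 0.05 after adjustment. The adjusted test therefore cannot decide whether the ratio differed. Without CB-100 replicate 4 the difference was -0.38. Base composition separates the strands as well. The mt-Nd6 transcript holds 28.1% G and 5.97% C, while the plus-strand mRNAs hold 5.88% to 16.1% G and 22.1% to 29.97% C, and its part in the counts was not tested.

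Per kilobase of transcript, which allows genes to be compared, mt-Co1 stood highest at 67941 CPM per kb in the CB-100 group and 51708 CPM per kb in sham. mt-Cytb came next in CB-100 at 34501 CPM per kb but held 12331 CPM per kb in sham, where mt-Nd1 at 18184 and mt-Atp6 at 12578 CPM per kb were higher. In CB-100 each mean below that of mt-Co1 differed from the next lower mRNA's by less than the larger of their SDs, so that order is not resolved. In sham the same held except for the steps below mt-Co1, below mt-Nd1 and above mt-Nd3, and the steps below mt-Nd1 and above mt-Nd3 did not hold with the nuclear copies described below added. With the copies added, mt-Atp6, mt-Co3 and mt-Co2 came to 48414, 43031 and 42764 CPM per kb in CB-100 and to 26221, 19321 and 23006 CPM per kb in sham. In both groups these 3 then lay above mt-Cytb and mt-Nd1, so the order depends on how reads of the copies are assigned. mt-Co1 still had the highest mean, at 69808 CPM per kb in CB-100 and 54785 CPM per kb in sham. In CB-100 its step to mt-Atp6 was then smaller than the SD of mt-Atp6 (25702), so its place there is not resolved. mt-Nd6 was the lowest mRNA in CB-100 at 5353 CPM per kb, while in sham mt-Nd3 at 2641, mt-Atp8 at 5305 and mt-Nd2 at 5461 CPM per kb lay under its 5521. The rRNAs were lower than every mRNA in these counts. mt-Rnr1 and mt-Rnr2 stood at 1497 and 771 CPM per kb in the CB-100 group and 662 and 387 CPM per kb in sham. In tissue the rRNAs outnumber the mRNAs, so these values do not give the order there, and the cause was not tested.

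Shares among the 13 mRNAs do not depend on how libraries are scaled, and 7 of the 13 separated the groups. On CPM, a different measure, every CB-100 library lay above sham for 11.1% of all genes and below for 12.2%. mt-Cytb held 13.4%, 10.9%, 11.6% and 15.1% of mitochondrial mRNA counts in CB-100 against 7.25%, 9.77% and 6.55% in sham. mt-Nd4 held 10.6%, 10.8%, 10.5% and 10.975% in CB-100 against 6.58%, 9.13% and 7.36% in sham. Both were above sham in every CB-100 library, and mt-Nd4 varied little within CB-100. mt-Nd2 (4.21% on average in the CB-100 group and 3.20% in sham), mt-Nd3 (0.999% and 0.490%) and mt-Nd4l (1.95% and 1.42%) were also higher in each CB-100 library. mt-Co1 held 36.1%, 39.6%, 39.7% and 31.1% in CB-100 against 47.1%, 42.3% and 50.1% in sham and so lay below sham throughout, as did mt-Nd6. With the nuclear copies described below added, the same 7 genes separated the groups and mt-Co3 did as well. Shares sum to a fixed total, so a higher share of some genes lowers that of others, and no test was made of them. By position, the median log2 change was 0.91 for the first 6 plus-strand mRNAs and 1.18 for the last 6, and Spearman's rho between start and log2 change over the 12 genes was 0.50, given as a description since the genes share libraries and precursors.

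**Figure D3:**
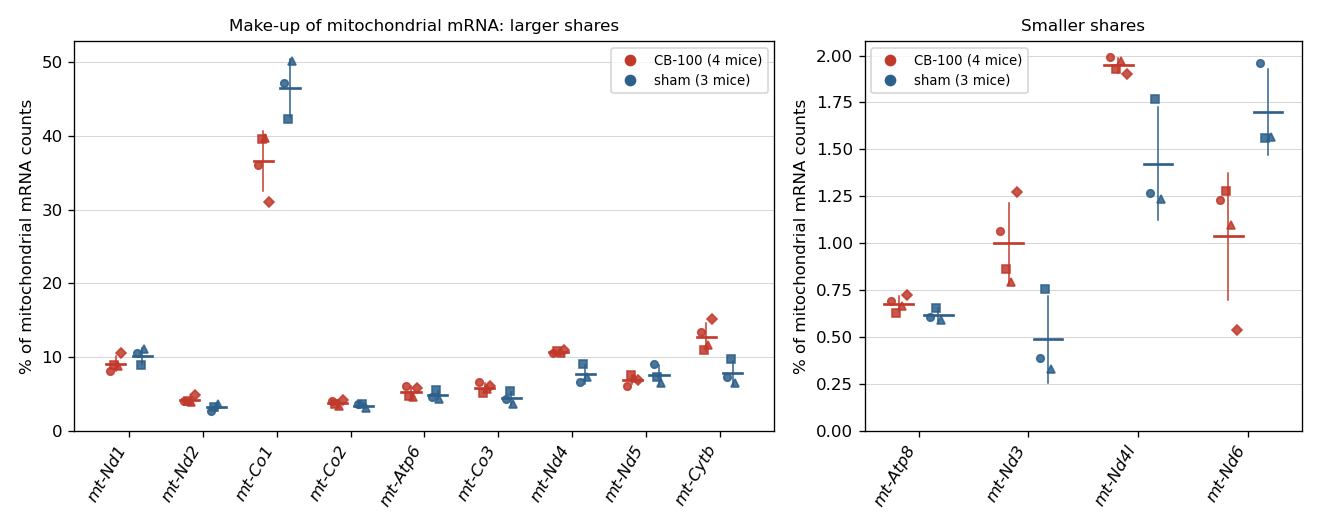
Share of mitochondrial mRNA counts (percent) of each of the 13 mRNAs, CB-100 left of sham, 1 point per library with marker shape for the replicate, and the mean and SD. mt-Co1 averages 36.6% in the CB-100 group and 46.5% in sham, and mt-Cytb 12.8% in the CB-100 group and 7.86% in sham, with no overlap for either.

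Copies in the nuclear genome took part of the counts. On chromosome 1, 7 annotated copies matched 7 of the mitochondrial mRNAs at 99% identity or more, and those 7 genes are uncertain for that reason: mt-Co1, mt-Co2, mt-Atp6, mt-Co3, mt-Nd3, mt-Nd4l and mt-Nd4. The copies together held 5.0% ± 1.74 (SD, n = 4) of all counts in the CB-100 group and 3.47% ± 0.888 (SD, n = 3) in sham. The deposited counts were divided unequally among the 5 pairs with no mismatch. Of the combined counts, Gm10925 held 50.9% of those of mt-Atp6 in the CB-100 group and 52.2% in sham, and Gm28437 held 48.1% of those of mt-Co3 in both groups. Gm28661 held 60.2% of those of mt-Co2 in the CB-100 group and 61.8% in sham. The copies of mt-Nd4 and mt-Nd4l held less, with 5.03% for Gm28439 and 11.03% for Gm10222 in CB-100 against 4.91% and 11.3% in sham, and no pair of these 5 separated the groups.

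The 2 pairs with 1 mismatch are those printed above. Gm28438 held 14.4%, 16.1%, 16.8% and 11.8% of the counts combined with mt-Nd3 in CB-100 against 17.2%, 18.8% and 33.6% in sham, with every CB-100 library below every sham library. Gm29216 held 1.85%, 1.17%, 2.13% and 4.39% of those combined with mt-Co1 in CB-100 against 5.85%, 4.11% and 7.08% in sham, where CB-100 replicate 4 overlapped with sham replicate 2. With the copies added, an alternative chosen after seeing the data, the log2 change was 1.63 for mt-Nd3 and 0.35 for mt-Co1. It was 0.89 for mt-Co2, 0.89 for mt-Atp6, 1.16 for mt-Co3, 1.21 for mt-Nd4 and 1.16 for mt-Nd4l, and 0 of the 7 passed edgeR's test.

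**Figure D4:**
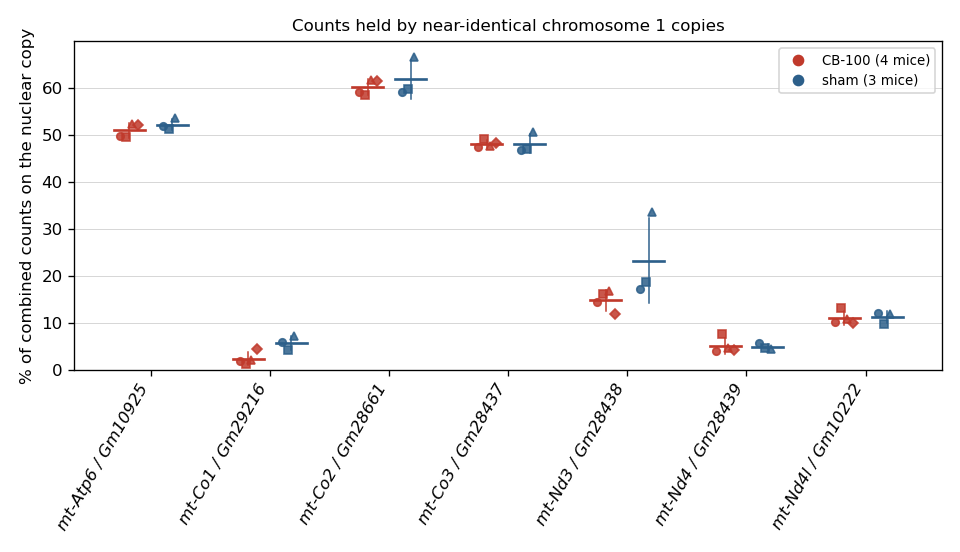
Percent of the combined counts of a mitochondrial gene and its near-identical copy on chromosome 1 that the deposited table gives to the copy, CB-100 left of sham, 1 point per library with marker shape for the replicate. Copies of mt-Atp6, mt-Co2 and mt-Co3 hold about as much as the gene, and that of mt-Nd3 averages 14.7% in the CB-100 group and 23.2% in sham.

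The tRNAs, 59 to 75 bases long, were all but absent from the table. Of 22 tRNA genes, 15 were at 0 in every library and the other 7 had 14 counts in total, with at most 3 for a gene in any library. The libraries held 0, 0, 3 and 3 tRNA counts in the CB-100 group and 6, 2 and 0 in sham, and 4 tRNA genes had a count in a CB-100 library and 3 in a sham library. A count of 0 allows a level of up to 0.277 CPM of the library total in the smallest library and 0.105 in the largest (3 counts, covering counting error only). That limit is for RNA that was counted, not for tRNA in the tissue. Counts were too few to compare the groups, and why was not tested.

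The complexes combine mitochondrial with nuclear subunits, and the nuclear ones fell where any passed. Of 74 nuclear genes of complexes I, III, IV and V, 14 fell and 0 rose in CB-100 (edgeR, adjusted over all genes), against 2.28% and 1.42% of all genes, and 73 estimates lay below 0, with a median of -0.72 beside 0.03 for all genes. In complex I, 8 of 36 fell. The 4 with the largest changes were Ndufc2 (log2 -1.38, edgeR adjusted p = 0.023), Ndufb3 (-1.11), Ndufs6 (-1.09) and Ndufa1 (-1.04). Ndufc2 averaged 45.7 ± 12.1 CPM (SD, n = 4) in the CB-100 group and 119 ± 15.3 CPM (SD, n = 3) in sham. In complex III, 1 of 9 fell, the core protein Uqcrc2 (log2 -1.06, edgeR adjusted p = 0.035). In complex IV, 3 of 13 fell, Ndufa4 (log2 -1.38, edgeR adjusted p = 0.043), Cox7b (-1.10) and Cox5a (-1.09). In complex V, 2 of 16 fell, the peripheral stalk subunits Atp5pb (log2 -1.05, edgeR adjusted p = 0.033) and Atp5h (-1.01). The number called was 0 without CB-100 replicate 2, without sham replicate 1 or without sham replicate 3, and also 0 in the 5 females alone, while the median stayed between -0.89 and -0.59 over all single omissions.

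Within each library the counts of a complex's mitochondrial genes can be set against those of its nuclear genes. For complex I the log2 of that ratio was 4.47, 5.06, 4.36 and 5.95 in CB-100 against 3.12, 3.62 and 3.38 in sham. For complex III it was 3.96, 4.27, 3.65 and 5.40 in CB-100 against 1.67, 2.57 and 1.89 in sham. For complex IV it was 5.70, 6.39, 5.65 and 6.81 in CB-100 against 4.49, 4.96 and 4.95 in sham. In all 3 every CB-100 library lay above every sham library, and CB-100 replicate 4 was the highest. Complex V did the same, at 1.97, 2.13, 1.40 and 3.27 in CB-100 against 0.160, 0.927 and 0.498 in sham. The differences were 1.59, 2.28, 1.34 and 1.66 for complexes I, III, IV and V, and they carry no test since both parts were chosen with earlier results known.

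**Figure D5:**
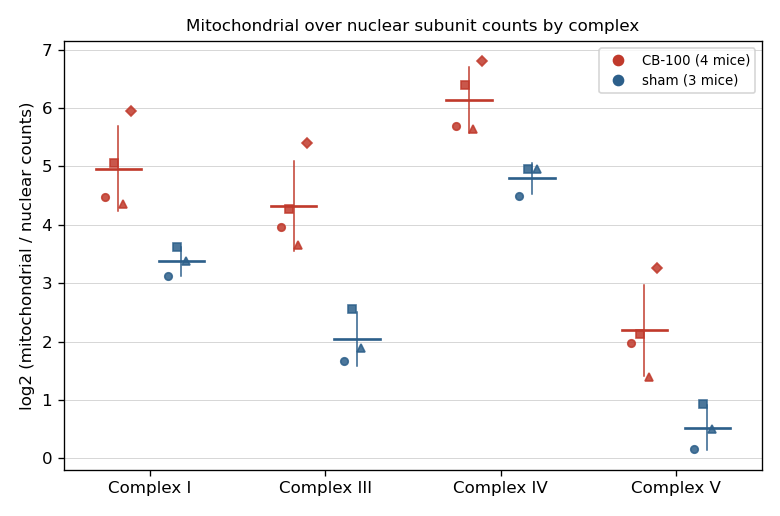
Log2 of summed mitochondrial over summed nuclear counts of complexes I, III, IV and V, CB-100 left of sham, 1 point per library with marker shape for the replicate, and the mean and SD. For complex III the means are 4.32 in the CB-100 group and 2.04 in sham, and the groups do not overlap in any of the 4 complexes.

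Genes that copy, transcribe, process and degrade mitochondrial RNA and DNA are nuclear. Of 55 such genes, 2 fell and 0 rose in edgeR, against 2.28% and 1.42% of all genes, a share close to the background (3.7% in either direction). At an unadjusted p under 0.05 there were 16, against 23.9% of all genes, with a median of -0.15 and 35 estimates below 0, against 47.3% of all genes. Hsd17b10, a subunit of mitochondrial RNase P that is also a dehydrogenase, had 51.4, 39.3, 57.3 and 29.2 CPM in CB-100 against 196, 128 and 151 CPM in sham. Every CB-100 library was far below every sham library, and the log2 change was -1.84 (SE 0.25, edgeR adjusted p = 0.020). Mterf4, a factor for assembly of the mitochondrial ribosome, had 17.1, 9.498, 13.1 and 8.84 CPM in CB-100 against 26.6, 23.2 and 37.2 CPM in sham. It too was lower in each CB-100 library, and its log2 change was -1.26 (SE 0.26, edgeR quasi-likelihood adjusted p = 0.038). These 2 calls are among those lost without sham replicate 1, without sham replicate 3, without CB-100 replicate 2 or in the females alone, where 0 genes of these lists were called.

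By role, the shares over all genes to compare with were the same (3.7% called and 23.9% at an unadjusted p under 0.05). In the transcription list 1 of 9 genes fell, with a list median of -0.06. This was Mterf4, listed there with the other Mterf genes although its role given above is ribosome assembly. The other 8 genes of that list did not pass. In the processing and modification list 1 of 15 genes fell, Hsd17b10, with a list median of -0.24. None of 11 replication genes passed (1 at an unadjusted p under 0.05), with a median of -0.10; the smallest p-values were those of Twnk, the replicative helicase (log2 -0.45, edgeR adjusted p = 0.090), and Mgme1, an exonuclease (-0.34). None of 14 stability and decay genes passed (3 at an unadjusted p under 0.05), with a median of -0.25; Supv3l1, the helicase of the degradosome, had -0.48 and Mtpap, the poly(A) polymerase, -0.34. None of 6 nuclear factors and coactivators for respiratory genes passed (2 at an unadjusted p under 0.05), with a median of 0.11; Esrra had 0.63 and Gabpa -0.52.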

How the data were processed

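Total RNA of brown adipose tissue was sequenced on an Illumina instrument, and per the labels' protocols STAR 2.7.9a aligned the reads to Ensembl release 101. Per the submitters' processing notes, featureCounts 2.0.3, Salmon 1.5.2, edgeR and limma were also used, with no roles. No source used here names the library kit. The authors deposited expected counts per gene, with non-whole values where reads were divided. Of 55774 lines, 287 exact repeats were removed, and 99.5% of genes matched GENCODE M21 (GRCm38, not the authors' release). Near-identical copies were found with BLAST 2.17.0.

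Counts were rounded, filtered with filterByExpr and scaled by TMM. Factors ran from 0.755 for CB-100 replicate 4 to 1.25 for sham replicate 1. Against unscaled totals this raised the CPM of the former and lowered that of the latter. Genes were tested with edgeR 4.0.16 (quasi-likelihood, robust, two-sided, Benjamini-Hochberg over 16823 genes, threshold 0.05) in R 4.3.3. The procedure was tested on simulated data. An SE is the log2 change over the square root of F. Over all tested genes replicates varied by 28.0% (edgeR's common estimate), and the number of mice limits precision. Single genes could vary more, as mt-Cytb did at 39470 ± 22445 CPM (SD, n = 4) in the CB-100 group. DESeq2 1.42.0 and limma 3.58.1 were alternatives. Single ratios had exact permutation tests. Members and lists were chosen with earlier results of these data known. Named genes were all members, each list's up to 4 called genes with the largest change or the 2 with the smallest p, and copies. Ucp1 and Fabp4 were added as large parts of a marker sum. Replicates follow sample order.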

Additional observations from a re-analysis of the deposited data

Results flagged for a closer look

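Within the CB-100 group, 5 of 48 values examined had 1 library far from the other 3, by the gap to its nearest neighbour over the range of the group (0.83 is the limit for 4 samples, which chance passes in about 1 in 20 groups). In each case it was CB-100 replicate 4, the deepest library, and it was the high one. mt-Nd1 stood at 50451 CPM there (gap over range 0.922), mt-Nd2 at 23263 CPM (0.852), mt-Co1 at 148651 CPM (0.839) and mt-Nd5 at 33210.1 CPM (0.895). The share of mt-Nd2 in mitochondrial mRNA counts was 4.87% in that library (0.906). These genes share precursors and a library, so the flags are not independent of each other, and the cause was not tested. The CPM values are TMM-scaled, with a factor of 0.755 for CB-100 replicate 4. Whether their flags hold on unscaled counts was not tested.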

How the results depend on the processing

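No paired analysis was possible because no animal code in a title occurs in both groups. Of the mitochondrial genes, 0 were called under every scaling, filter and single omission and in females alone; DESeq2 called 5. Over all genes, the count was 622, against 1968 with DESeq2, 1213 with limma voom, 0 in the 5 females alone (2578 at an unadjusted p under 0.05) and 8 to 610 with single libraries left out. For the nuclear respiratory chain it was 14, against 33 with no filter, 43 with DESeq2, 27 with limma voom, 0 in females and 0 to 12 with single libraries left out. For the expression machinery it was 2, against 4 with DESeq2, 5 with limma voom, 0 in females and 0 to 2 with single libraries left out. The log2 change of mt-Nd6, -0.04, was -0.20 to 0.15 with single libraries left out, with 0.03 without CB-100 replicate 3 and 0.15 without sham replicate 2. The difference in mitochondrial share, 8.02 percentage points, was 4.86 to 10.0 with single libraries left out, 9.96 without 7SL and 7SK, 9.55 with nuclear copies added and 12.0 of protein-coding and mitochondrial counts. The ratio of mt-Nd6 to mt-Nd5 differed by -0.84 to -0.38 and that of mt-Rnr2 to mt-Rnr1 by -0.32 to -0.02 with single libraries left out. Adding the copies, scaling without mitochondrial genes, copies, 7SL and 7SK, and the females alone were chosen after seeing the data. The cause of these differences was not tested, and omissions also leave fewer libraries. Counts in the tRNA genes were too few for any comparison.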
